A study of Homo sapiens with 9 samples.

Results

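The genes described here encode the proteins of the cytosolic ribosome in WM3248, a human melanoma cell line exposed to ARN22089. They were chosen by name: protein-coding genes called RPL or RPS with a number, with a final A, X, L or Y allowed, together with RPLP0, RPLP1, RPLP2 and RPSA. Pseudogenes and the RPS6K kinases were left out. The choice used no measured value. It gave 84 genes, 50 for the large 60S subunit and 34 for the small 40S subunit. Assembled transcripts were found for 80 of them, 48 of the 60S and 32 of the 40S subunit, out of 16997 genes found in the series. All 80 had a mean of at least 1 FPKM and were tested beside 13117 genes in all. No transcript was named for RPL3L, RPL10L, RPS4Y1 or RPS4Y2.

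Poly-A selected RNA was sequenced from cells harvested 24 h after they received DMSO alone (0 µM), 4 µM ARN22089 or 6 µM ARN22089, with 3 libraries at each dose. ARN22089 is an inhibitor developed against the interaction of CDC42-type GTPases with their effectors. Whether replicates were grown as separate cultures is not stated, and every p-value given here therefore measures only how far these libraries spread, which may be technical. In bulk RNA, fewer cells with a transcript and less of that transcript in each cell cannot be told apart.

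The cytosolic ribosome joins a small subunit, which decodes the mRNA, to a large subunit, which forms the peptide bond, and each holds 1 copy of most of its proteins. Ribosomal protein mRNAs are among the most abundant in dividing cells. In mammals most of them start with a cytosine followed by a run of pyrimidines, the terminal oligopyrimidine or TOP motif. Through this motif the mTOR pathway and the protein LARP1 set how strongly they are translated, a step that an RNA level does not measure.

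The first bases of several of these genes are shown because the TOP run sits there, and because some close paralogues differ in it. The RefSeq table of promoters (GRCh38.p14) had an entry for 67 of the members. Each line gives 15 bases before the annotated start and the first 15 transcribed bases, which belong to the first exon, 5′ to 3′ on the gene's own strand. Capitals mark the C/T run that begins with a C exactly at the start.
RPS6, chr9:19380222-19380251, minus strand: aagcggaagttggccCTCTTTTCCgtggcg
RPSA, chr3:39406705-39406734, plus strand: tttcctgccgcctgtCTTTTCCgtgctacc
RPLP1, chr15:69452803-69452832, plus strand: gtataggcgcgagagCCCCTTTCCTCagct
RPL11, second listed start, chr1:23691791-23691820, plus strand: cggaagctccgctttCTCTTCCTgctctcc
RPL34, first listed start, chr4:108620561-108620590, plus strand: aaaggcttttttcttCCTCTTCCggggacg
RPS16, chr19:39435935-39435964, minus strand: gtggcccctagctttCCTTTTCCggttgcg
RPS27, chr1:153990747-153990776, plus strand: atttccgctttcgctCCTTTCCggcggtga
RPS27L, chr15:63157463-63157492, minus strand: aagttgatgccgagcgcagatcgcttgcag
RPL36A, chrX:101390996-101391025, plus strand: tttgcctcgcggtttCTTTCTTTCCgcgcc
RPL36AL, chr14:49620612-49620641, minus strand: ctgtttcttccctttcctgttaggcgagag
The paralogues RPS27L and RPL36AL had no such run of 5 or more bases at the listed start, while RPS27 and RPL36A did. RPL36AL had one within 10 bases of its listed start, and RPS27L did not. Not every pair differed this way: RPL22 and RPL22L1 both had the run at the listed start, and RPS4Y1 had it where RPS4X did not.

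A C at a listed start followed by at least 4 bases that were C or T was found in 47 of 67 members (70.1%), against 941 of 15775 other protein-coding genes (5.97%). Within 10 bases of a listed start, on the gene's strand, it was found in 59 members (88.1%) and in 40.9% of the other genes. Genes with several listed starts had more chances to match, and members had between 1 and 3 listed starts. In the 300 bases around the start, searched on both strands, CCGGAAG, the core bound by ETS-family factors, stood in 34.3% of members and 16.5% of other genes. CTCTTTCC, whose letters can form part of a TOP run, stood in 16.4% of members and 3.97% of other genes, and TATAAA in 8.96% of members and 12.4% of other genes. These matches describe the letters only. The members are scattered over 22 chromosomes, with the most on chromosome 19, which holds 12 of the 84 (14.3%) and 7.24% of all protein-coding genes.

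Level is measured here by a pair of values. The first is the sum of the FPKM (fragments per kilobase of transcript and per fixed number of mapped fragments) of all transcripts assembled for a gene. Since FPKM divides by the length that was assembled, it moves when the same gene is assembled longer or shorter in another library. The second, called the length-weighted value, multiplies each transcript's FPKM by its length in kilobases before summing, and so is meant to depend less on the assembled length. How far it still moves with that length was not tested. It was added after the values had been seen. Levels of different genes are compared by FPKM alone, which is per length.

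The members were among the most abundant RNAs of these cells. Of the 50 genes with the highest mean FPKM of all, 32 were members, and 69 of the 80 were among the highest 200. RPS18, part of the head of the small subunit, stood highest with a mean of 3889 FPKM over the 9 libraries. Other members at the high end were RPS29 with 2409, RPL37A with 2384, RPLP1 with 2330, RPS20 with 1980 and RPS16 with 1867 FPKM. Neighbours in this order overlapped between libraries: RPS29 ranged between 1195 and 3266 FPKM and RPL37A between 1050 and 3412 FPKM. At the low end stood RPL39L with 11.3 FPKM, RPL22 with 99.0, RPS27L with 163, RPL28 with 172, RPL14 with 258, RPS26 with 319, RPL21 with 323 and RPL23A with 339 FPKM. Members whose proteins stand at 1 copy in each ribosome, such as RPS18 and RPL14, thus differed widely in FPKM.

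All libraries carried melanocyte markers. All 10 genes of that list were found, with a summed level of 716 to 1699 FPKM at 0 µM, 1339 to 2415 FPKM at 4 µM and 1494 to 2431 FPKM at 6 µM. The part of this difference in the results below was not tested. Of other cell types, all 6 fibroblast markers were found at 16.8 to 62.8 FPKM in sum over the 9 libraries, 2 of 5 keratinocyte markers at 28.9 to 38.8 FPKM, 1 of 5 leukocyte markers at 2.62 to 4.45 FPKM and 1 of 4 endothelial markers at 1.44 FPKM or less. Among those with no transcript named were KRT1, KRT5, DSG3, PTPRC, CD3E, CD14, PECAM1, VWF and CDH5. The libraries held 26506 to 30798 transcripts, and their relative depth, read from the ratio of coverage to FPKM, ran between 0.802 and 1.34 of the median library. Replicate 3 at 0 µM stood apart, with an FPKM sum over all transcripts of 1061110 against 587999 to 689699 in the other 8 libraries.

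In sum over the members, the FPKM of ribosomal protein genes was 85839, 67599 and 78926 with vehicle, 92329, 98987 and 86212 at 4 µM, and 97148, 96924 and 87114 at 6 µM. The libraries of both doses lay above those of the vehicle without overlap, the nearest being 86212 at 4 µM and 85839 at 0 µM. The mean was 77455 ± 9209 at 0 µM, 92509 ± 6389 at 4 µM and 93728 ± 5729 at 6 µM (SD, n = 3 each). By the length-weighted value the groups overlapped, with 61538 ± 8105 at 0 µM, 67635 ± 4265 at 4 µM and 70495 ± 4309 at 6 µM (SD, n = 3 each). Replicate 2 at 0 µM was the lowest library by both measures, with a length-weighted sum of 53062 where the other 8 libraries held 62341 to 74473. Members took 6.62% ± 0.743 of the length-weighted total of named genes at 0 µM, 7.44% ± 0.534 at 4 µM and 7.98% ± 0.565 at 6 µM (SD, n = 3 each). The 60S and 40S members kept a similar proportion by the length-weighted value. There the 60S sum divided by the 40S sum was 1.27 ± 0.0306 at 0 µM, 1.33 ± 0.0449 at 4 µM and 1.32 ± 0.0757 at 6 µM (SD, n = 3 each). By summed FPKM the ratio was 1.14 ± 0.058, 1.18 ± 0.0983 and 1.11 ± 0.156 (SD, n = 3 each), with 0.946 in replicate 3 at 6 µM.

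**Figure D1:**
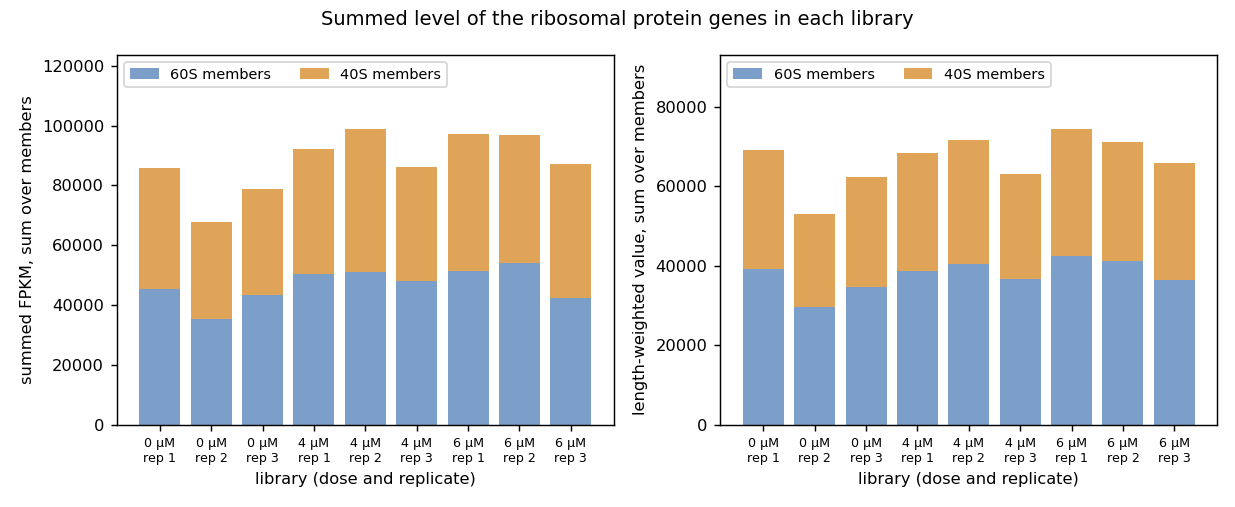
Sum over the 80 ribosomal protein genes found, in each of the 9 libraries, split into 60S members (blue) and 40S members (orange). Left, summed FPKM; right, length-weighted value (FPKM times kilobases assembled). Both axes start at 0. The sums at 4 and 6 µM lie above those at 0 µM on the left and overlap them on the right, and replicate 2 at 0 µM is lowest in both.

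With 4 µM against vehicle, no member passed limma's test with Benjamini-Hochberg adjustment over all 13117 genes, at a threshold of 0.05, and 11 of all genes did (0.0839%). The log2 difference of summed FPKM + 1 was positive for 52 of 80 members and for 49.8% of all genes, with a median of 0.15 over the members and 0.00 over all genes. Without adjustment, 9 members were higher and 1 was lower with p below 0.05, in a background of 6.09% of all genes higher and 4.39% lower. In 12 members (15%) all 3 libraries at 4 µM lay above all 3 at 0 µM, which was so for 9.67% of all genes. These were RPL10A, RPL11, RPL21, RPL27A, RPL30, RPL34, RPL36AL, RPS19, RPS21, RPS27, RPS29 and RPSA. Only RPS27L lay below without overlap, in a background of 8.03%. With the length-weighted value no member passed and 0.0897% of all genes did. There, 59 members and 45.7% of all genes were positive, with a median of 0.12 over the members and −0.03 over all genes, and 8 members were higher and 2 lower at an unadjusted p below 0.05, where 6.27% of all genes were higher and 7.8% lower. On this measure 11 members lay above the vehicle without overlap (13.75%, background 9.07%), and RPS7 and RPS15A below (background 11.8%).

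With 6 µM against vehicle, which shares its 0 µM libraries with the comparison above, no member passed the same limma test and 43 of all genes did (0.328%). Positive log2 differences were found in 56 of 80 members and in 47.1% of all genes, with a median of 0.26 over the members and −0.03 over all genes. Without adjustment, 7 members were higher and none lower at p below 0.05, where 7.89% of all genes were higher and 9.11% lower. In 15 members (18.75%) the libraries at 6 µM all lay above those at 0 µM, in a background of 10.9%, among them RPL5, RPL7, RPL10A, RPL12, RPL21, RPL30, RPL32, RPL36AL, RPLP1, RPS16, RPS21, RPS25, RPS27 and RPSA. RPL39L alone lay below, in a background of 13.4%. Again no member passed by the length-weighted value, where 3.21% of all genes did. There, 63 members and 44.1% of all genes were positive, with a median of 0.18 over the members and −0.06 over all genes, and 16 members were higher and 1 lower at an unadjusted p below 0.05, with 8.57% of all genes higher and 14.5% lower. On this measure 16 members lay above the vehicle without overlap (20%, background 11.8%), and RPS7 and RPL39L below (background 18.4%). Split by subunit, the median at 6 µM was 0.19 over 60S and 0.14 over 40S members by the length-weighted value, and 0.24 and 0.27 by summed FPKM. Replicate 2 at 0 µM carried much of these medians. Without it they were 0.09 at 4 µM and 0.09 at 6 µM by summed FPKM, and 0.01 and 0.05 by the length-weighted value. The medians over all genes were then 0.00 and −0.03 by summed FPKM, and −0.05 and −0.07 by the length-weighted value.

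Between the doses, 6 µM against 4 µM, no member passed limma's test and 0.0381% of all genes did. The median log2 difference of the members was 0.09, with 52 of 80 positive, where 45.1% of all genes were. At an unadjusted p below 0.05 no member was higher and RPL13A and RPL28 were lower, in a background of 1.92% of all genes higher and 2.93% lower. The 6 µM libraries lay above those at 4 µM without overlap for RPL5, RPS13, RPS25 and RPS26 (5% of members, background 3.95%) and below for RPL13A (background 7.15%). The summed difference was largest for RPS28 with 1.21, RPS26 with 0.59 and RPL7 with 0.56, and smallest for RPL36 with −2.21, RPL13A with −1.84 and RPL28 with −1.40. RPS26, a protein at the mRNA exit of the small subunit, had 353, 358 and 356 FPKM at 6 µM, against 199, 343 and 193 FPKM at 4 µM. With the length-weighted value no member passed either, in a background of 0.0224%, and 57 members and 43.3% of all genes were positive. At an unadjusted p below 0.05, 2 members were higher and none lower (background 1.65% and 3.33%). On this measure 6 members, among them RPL10, RPL27A, RPS3A, RPS4X and RPS26, lay above the 4 µM libraries without overlap (background 4.75%), and RPL13A below (background 7.43%).

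**Figure D2:**
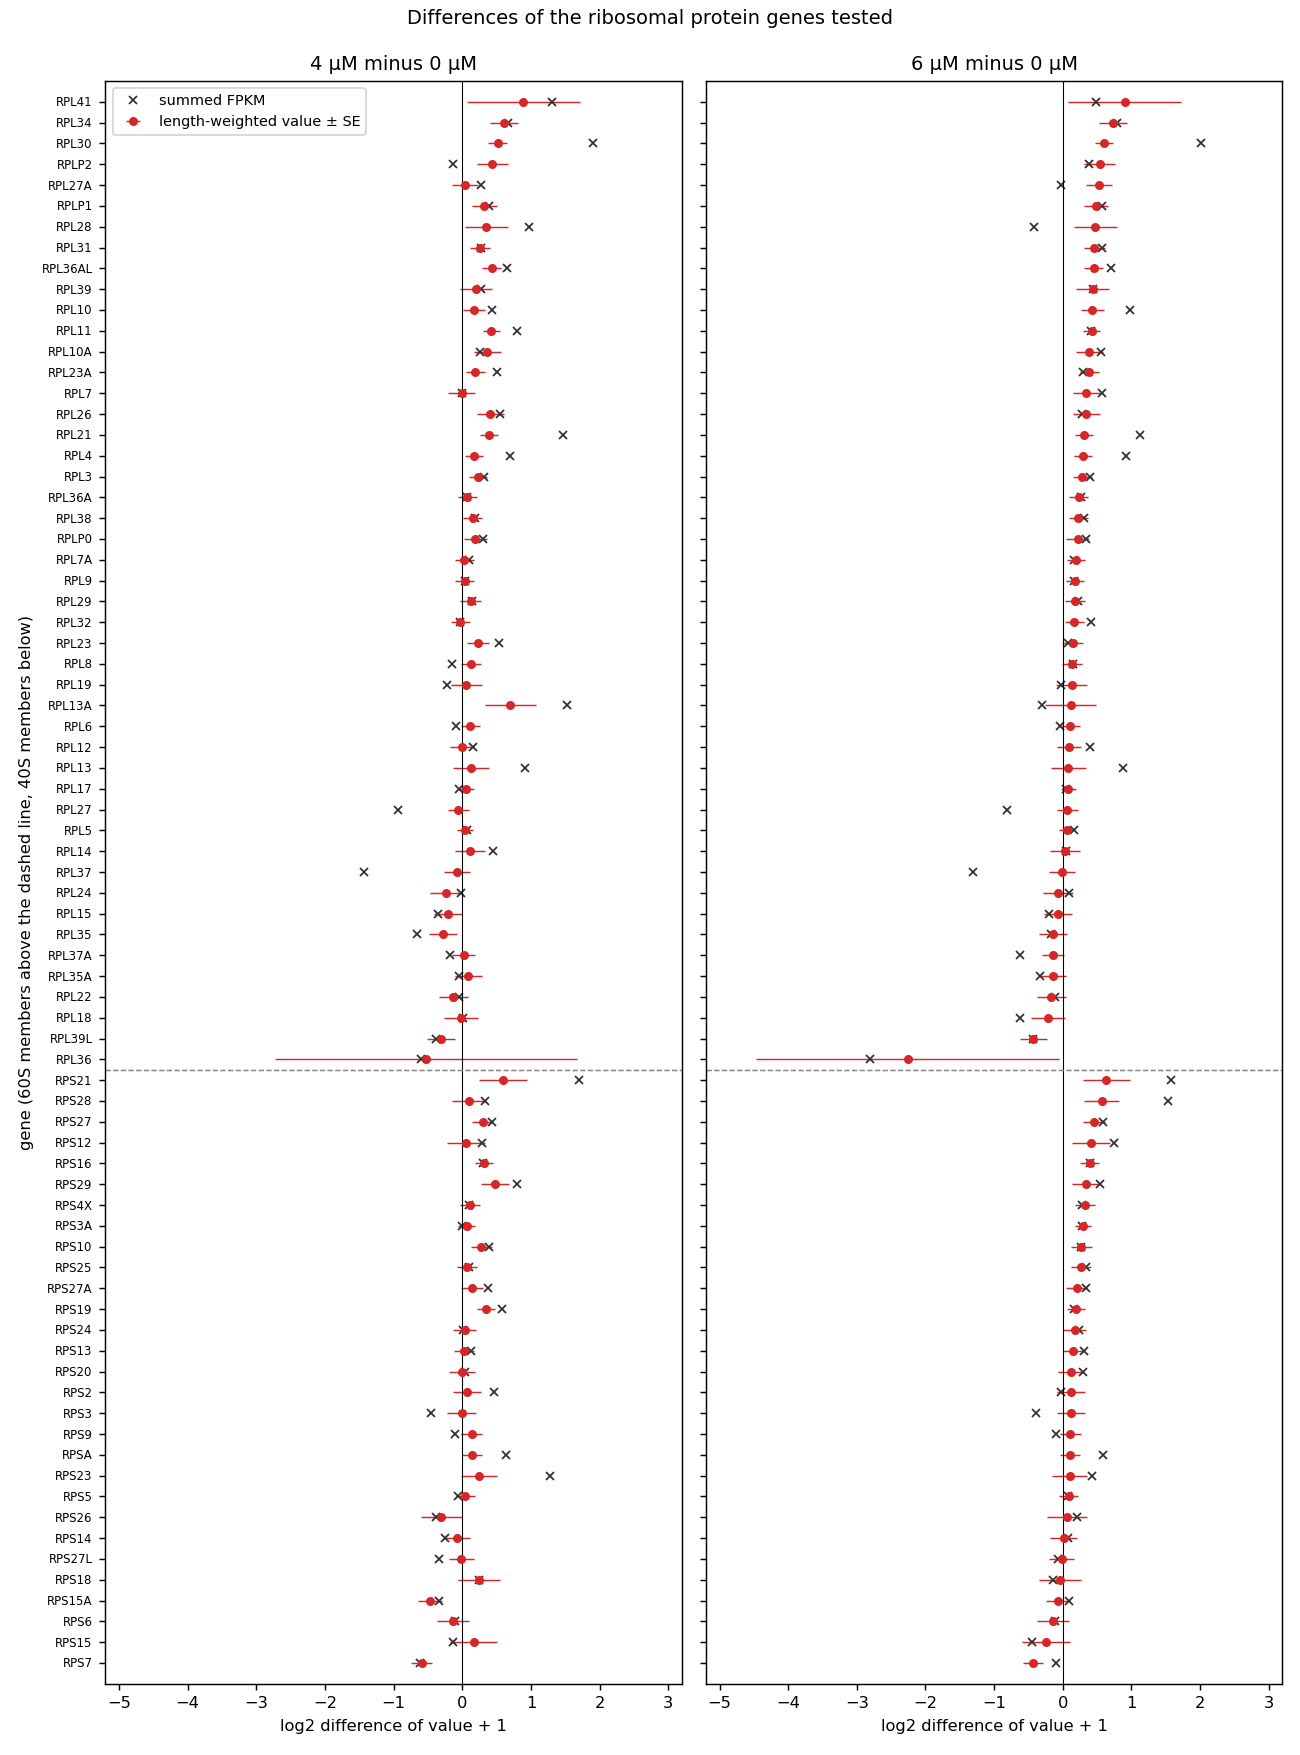
Log2 difference of the members tested, apart from a few not reported here, at 4 µM (left) and 6 µM (right) against 0 µM, with 60S members above the dashed line and 40S members below. Red points with bars give the length-weighted value with its standard error from limma, and black crosses the summed FPKM. Most red points lie a little right of 0, with 59 of all 80 tested positive at 4 µM and 63 at 6 µM, while the crosses scatter more widely, and RPL36, listed at 0 in 1 library, has the widest bar.

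RPL30, a protein of the large subunit, had the highest positive difference from the vehicle by summed FPKM at both doses. It had 351, 478 and 1110 FPKM at 0 µM, 2063, 2368 and 1996 FPKM at 4 µM, and 2523, 2256 and 2160 FPKM at 6 µM. All 6 treated libraries lay above all vehicle libraries. The log2 difference was 1.9 ± 0.37 at 4 µM (SE, limma adjusted p = 0.269) and 2.01 ± 0.37 at 6 µM (SE, limma adjusted p = 0.0663), so neither passed. Without replicate 3 at 0 µM, the highest of the vehicle libraries for this gene, RPL30 passed in both, with a limma adjusted p of 0.0037 at 4 µM and 0.0030 at 6 µM. Of all genes, 0.145% and 0.237% passed there. Leaving out the highest vehicle library raises the difference by construction. With any other library left out, no member passed by summed FPKM.

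The form in which RPL30 was assembled also differed, and its share in the FPKM difference was not tested. The gene lies on the minus strand at chr8:98041721-98045545 (GRCh38). In each vehicle library 1 transcript of 5 exons reached 1762, 1730 and 1755 bases beyond the RefSeq start, with a length of 2264, 2191 and 2216 bases. In the treated libraries the single transcript, also of 5 exons, reached 49, 48 and 64 bases beyond it at 4 µM and 47, 48 and 53 bases at 6 µM, with a length between 498 and 525 bases. The vehicle and treated libraries therefore did not overlap in the assembled 5′ end. The long form took 351, 239 and 165 FPKM in the vehicle libraries, and beside it replicates 2 and 3 held a shorter transcript of 4 exons with 240 and 945 FPKM, which did not reach the RefSeq start. RPL30 was the only member with an extension of over 500 bases in all libraries of 1 dose and in none of another. An assembled end can reflect the reads of the gene or the way the assembler joined them, and which of these differed with dose was not tested.

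Its length-weighted value was 795, 650 and 867 with vehicle, 1032, 1208 and 1048 at 4 µM, and 1256, 1126 and 1113 at 6 µM (FPKM times kilobases). The groups again did not overlap, but the difference was smaller, with a log2 difference of 0.51 ± 0.14 at 4 µM (SE, limma adjusted p = 0.216) and 0.60 ± 0.14 at 6 µM (SE, limma adjusted p = 0.0536). RPL30 therefore stayed just outside the threshold. Without replicate 3 at 0 µM, 0 members passed by this value at either dose, where 0.165% and 0.561% of all genes did. A further value, called the consensus exon value, averages FPKM along the exon positions assembled in most libraries. It gave 2.11 at 6 µM and passed (limma adjusted p = 0.0324), in a background of 3.39% of all genes. Because it uses FPKM as listed, it also moves with the assembled length, as the summed FPKM does.

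**Figure D3:**
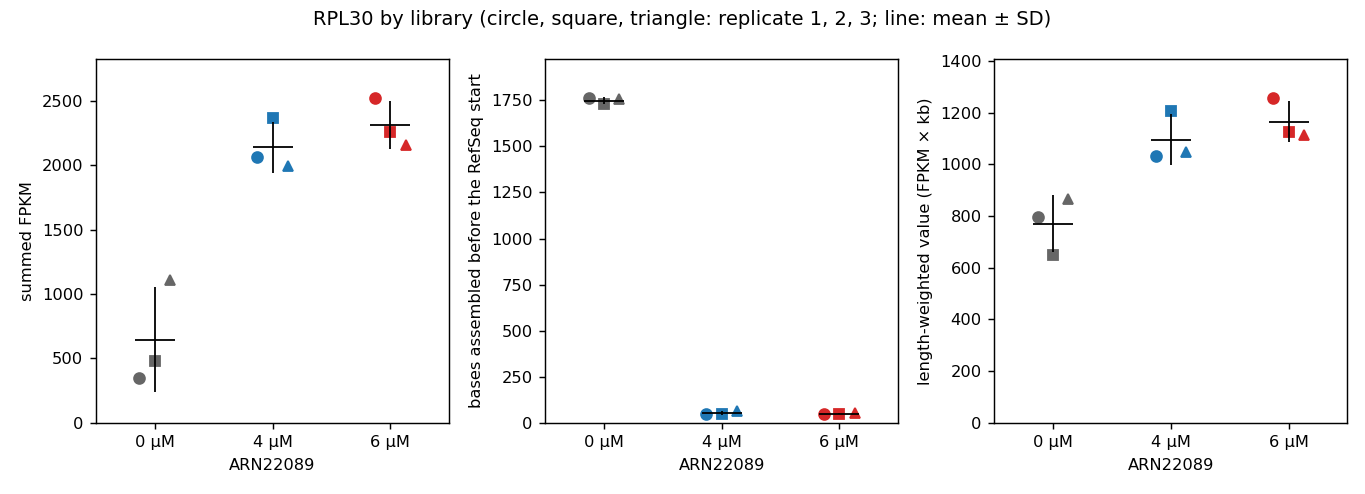
RPL30 in each library by dose of ARN22089: summed FPKM (left), bases assembled before the RefSeq start by the longest-reaching transcript (middle), and length-weighted value in FPKM times kilobases (right). Markers stand for replicates 1 to 3, lines for the mean and SD of 3 libraries. The vehicle libraries reach 1730 to 1762 bases before the start and the treated ones 47 to 64, and FPKM differs far more between them than the length-weighted value does.

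Other 60S members with treated libraries above the vehicle are next. RPL11, which with RPL5 and the 5S rRNA can bind MDM2 and so stabilise p53, had 507, 408 and 522 FPKM with vehicle, 620, 997 and 928 at 4 µM, and 699, 699 and 515 at 6 µM. Replicate 3 at 6 µM lay among the vehicle libraries. In the length-weighted value RPL11 had 671, 581 and 694 with vehicle, 848, 925 and 826 at 4 µM, and 925, 931 and 754 at 6 µM, with no overlap. This is a log2 difference of 0.42 ± 0.12 at both doses (SE, limma adjusted p = 0.25 at 4 µM and 0.0978 at 6 µM). Its partner RPL5 had the smallest within-dose spread of the members by summed FPKM. It had 590, 503 and 581 FPKM with vehicle, 591, 593 and 560 at 4 µM, and 655, 610 and 599 at 6 µM. The 6 µM libraries of RPL5 lay above those of both other groups without overlap. Its log2 difference was 0.06 ± 0.12 at 4 µM and 0.16 ± 0.12 at 6 µM (SE, limma adjusted p = 0.878 and 0.534).

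RPL34, a large-subunit protein singled out after its values were seen, had a length-weighted value of 230, 260 and 199 with vehicle, 336, 400 and 319 at 4 µM, and 457, 429 and 277 at 6 µM. It differed on the log2 scale by 0.61 ± 0.20 at 4 µM and 0.73 ± 0.20 at 6 µM (SE, limma adjusted p = 0.274 and 0.087). Without replicate 3 at 6 µM, RPL34 passed at that dose, with 0.95 ± 0.15 (SE, limma adjusted p = 0.0258), where 3.92% of all genes passed. That library was its lowest at 6 µM, so leaving it out raises the difference by construction. With any other library left out, no member passed at 6 µM by this value. The summed FPKM of RPL34, 1208, 1030 and 375 at 6 µM, overlapped the vehicle's 496, 492 and 367. Replicate 3 at 6 µM was assembled to 737 bases where the other libraries gave 378 to 541. RPL36AL, the paralogue of RPL36A, had 559, 400 and 509 FPKM with vehicle, 772, 928 and 614 at 4 µM, and 964, 749 and 683 at 6 µM. Every treated library lay above every vehicle library, also by the length-weighted value. Its log2 difference of summed FPKM was 0.65 ± 0.21 at 4 µM and 0.70 ± 0.21 at 6 µM (SE, limma adjusted p = 0.398 and 0.16).

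The stalk of the large subunit, where translation factors dock, is built of RPLP0, RPLP1 and RPLP2. RPLP1 had 2435, 1781 and 1409 FPKM with vehicle, 2691, 2391 and 2106 at 4 µM, and 2694, 2958 and 2500 at 6 µM. The 6 µM libraries all lay above the vehicle and those at 4 µM overlapped it. The log2 difference at 6 µM was 0.57 ± 0.21 (SE, limma adjusted p = 0.231), and it was of similar size by the length-weighted value, 0.48 ± 0.18. RPLP0 gave 0.34 ± 0.22 at 6 µM (SE, limma adjusted p = 0.469). RPLP2 ranged between 424 and 2037 FPKM at 6 µM alone, and its summed FPKM overlapped the vehicle at both doses.

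RPL10A and RPL10, both of the large subunit, are different genes despite their names. RPL10A, like RPL34, is described outside the rule that fixed which members are named. RPL10A had 363, 366 and 357 FPKM with vehicle, 478, 451 and 374 at 4 µM, and 613, 533 and 466 at 6 µM. All treated libraries lay above the vehicle in FPKM, by 0.25 ± 0.15 at 4 µM and 0.56 ± 0.15 at 6 µM on the log2 scale (SE, limma adjusted p = 0.574 and 0.12), but at 6 µM the length-weighted values overlapped. RPL10, which joins the subunit late in its maturation, had a log2 difference of 0.98 ± 0.51 at 6 µM (SE, limma adjusted p = 0.363), with FPKM between 482 and 2410 at that dose. RPL21 differed by 1.47 ± 0.52 at 4 µM and 1.13 ± 0.52 at 6 µM in summed FPKM (SE, limma adjusted p = 0.411 and 0.318), but by 0.39 ± 0.13 and 0.31 ± 0.13 in the length-weighted value. All 3 vehicle libraries held a single RPL21 transcript of 2925 to 2967 bases. Of the treated libraries, 2 held a single shorter one, of 825 and 1298 bases, 2 held 1 of 3054 and 2949 bases, and the other two held a long form, of 2972 and 2933 bases, beside a short one of 583 and 575 bases.

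Among the 40S members, RPSA, also known as the laminin receptor precursor, had 657, 719 and 909 FPKM with vehicle, 1219, 1159 and 1143 at 4 µM, and 1185, 1155 and 1053 at 6 µM. The treated libraries lay above the vehicle without overlap, by 0.64 ± 0.15 at 4 µM and 0.58 ± 0.15 at 6 µM (SE, limma adjusted p = 0.282 and 0.113). Here too the length differed: RPSA was assembled to 1800, 1115 and 1133 bases in the vehicle libraries and to between 915 and 987 bases in the treated ones. Weighted by length the groups overlapped, and RPSA differed by 0.14 ± 0.14 at 4 µM and by 0.10 ± 0.14 at 6 µM (log2, SE).

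RPS27, a zinc-finger protein of the small subunit, was assembled to nearly the same length, between 597 and 601 bases, in 8 libraries and to 800 bases in replicate 3 at 0 µM. It had 417, 359 and 360 FPKM with vehicle, 536, 531 and 464 at 4 µM, and 552, 680 and 490 at 6 µM. The treated libraries all lay above the vehicle, by 0.43 ± 0.16 at 4 µM and 0.59 ± 0.16 at 6 µM on the log2 scale (SE, limma adjusted p = 0.412 and 0.119), and by 0.30 ± 0.15 and 0.45 ± 0.15 in the length-weighted value, where those at 4 µM overlapped the vehicle. Its paralogue RPS27L, known as a target of p53, had 194, 176 and 163 FPKM with vehicle, 138, 155 and 130 at 4 µM, and 184, 149 and 176 at 6 µM. It was lower at 4 µM without overlap, by 0.33 ± 0.14 on the log2 scale (SE, limma adjusted p = 0.458), but the length-weighted difference was −0.01 ± 0.18.

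RPS16 was another member of stable assembled length, 594 to 659 bases. It had 1694, 1510 and 1510 FPKM with vehicle, 2031, 2170 and 1651 at 4 µM, and 2381, 2122 and 1737 at 6 µM. At 6 µM all libraries lay above the vehicle, and on the log2 scale RPS16 differed by 0.30 ± 0.17 at 4 µM and 0.39 ± 0.17 at 6 µM (SE, limma adjusted p = 0.55 and 0.285), and 0.31 ± 0.13 and 0.39 ± 0.13 by the length-weighted value.

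RPS6, the substrate of the S6 kinases and a common readout of mTOR activity as a phosphoprotein, had 2158, 1100 and 1340 FPKM with vehicle, 1417, 1389 and 1306 at 4 µM, and 1465, 1341 and 1286 at 6 µM. On the log2 scale this was −0.10 ± 0.23 at 4 µM and −0.11 ± 0.23 at 6 µM (SE, limma adjusted p = 0.898 and 0.839). RPS19, the gene most often mutated in Diamond-Blackfan anaemia, was above the vehicle at 4 µM without overlap, by 0.57 ± 0.25 (SE, limma adjusted p = 0.468), and by 0.16 ± 0.25 with overlap at 6 µM. RPS7, another protein that can bind MDM2, ran the other way by the length-weighted value. It had 548, 475 and 582 with vehicle, 367, 396 and 305 at 4 µM, and 428, 433 and 331 at 6 µM, so that every treated library lay below the vehicle. In log2 units it differed by −0.59 ± 0.15 at 4 µM and −0.43 ± 0.15 at 6 µM (SE, limma adjusted p = 0.216 and 0.14), while its summed FPKM overlapped at both doses.

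**Figure D4:**
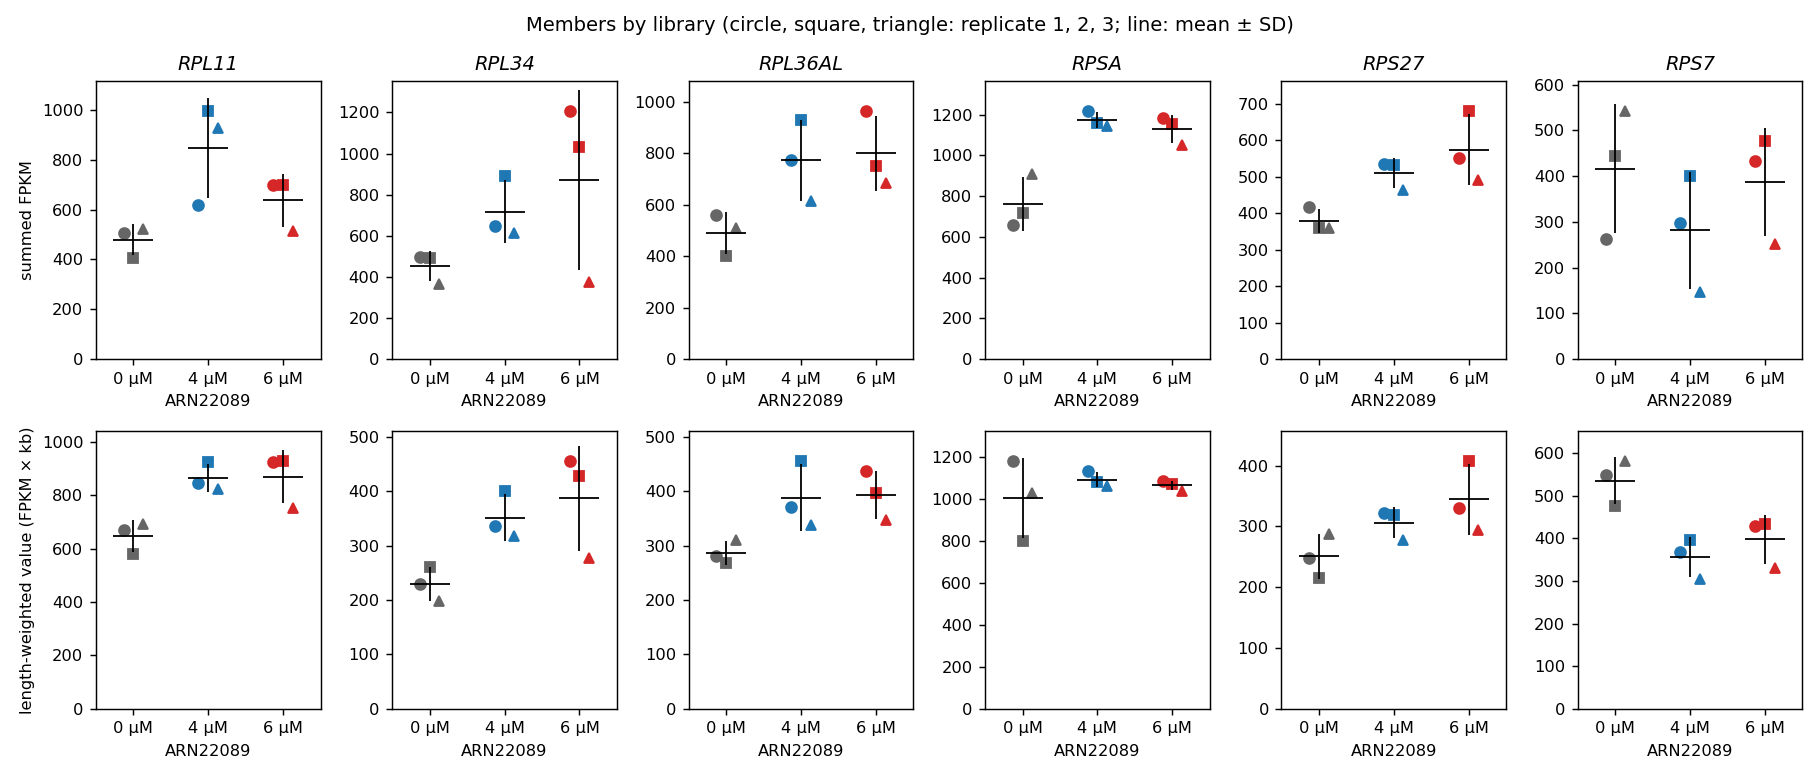
RPL11, RPL34, RPL36AL, RPSA, RPS27 and RPS7 in each library by dose of ARN22089, as summed FPKM (top) and length-weighted value (bottom); markers stand for replicates 1 to 3, lines for mean and SD of 3 libraries. RPL36AL lies above the vehicle in every treated library in both rows, RPSA does so in the top row only, and RPS7 lies below it in the bottom row only.

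None of the remaining paralogues passed the test either. RPL39L, a paralogue of the exit-tunnel protein RPL39 known from the mouse testis, was the lowest member found. It had 16.2, 11.6 and 13.2 FPKM with vehicle, 7.73, 11.3 and 11.9 at 4 µM, and 10.7, 8.65 and 9.95 at 6 µM. At 6 µM it lay below the vehicle without overlap, by 0.44 ± 0.20 on the log2 scale (SE, limma adjusted p = 0.303). RPL39 itself ran between 366 and 804 FPKM and differed by 0.45 ± 0.26 at 6 µM (SE, limma adjusted p = 0.413). RPL36A gave 0.26 ± 0.19, RPL3 0.40 ± 0.36, RPL7 0.57 ± 0.43, RPL22 −0.11 ± 0.20, RPL26 0.28 ± 0.63 and RPS4X 0.27 ± 0.17 at 6 µM (SE, summed FPKM), none past the test. Outside the naming rule, RPL7L1 had 65.1, 95.0 and 87.5 FPKM with vehicle, 60.3, 68.9 and 87.6 at 4 µM, and 45.2, 56.4 and 59.2 at 6 µM. Its log2 difference at 6 µM was −0.60 ± 0.20 (SE, limma adjusted p = 0.195). RPL22L1 gave 0.38 ± 0.37 and RPL26L1 −0.65 ± 0.29 at 6 µM. FAU, a ubiquitin-type fusion gene that also encodes a ribosomal protein, gave −0.06 ± 0.16 at 6 µM.

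The assembled length of these genes differed between libraries, and in some members the FPKM differed with it. How FPKM went with length over all members was not tested. Between the libraries the mean length, weighted by FPKM, differed by a median of 1.68 times per member, by over 2 times in 30 members and by under 1.2 times in 12. RPS28 is an example. At 0 µM it was assembled to 616, 341 and 1534 bases with 949, 2432 and 327 FPKM, at 4 µM to 677, 872 and 341 bases with 1044, 548 and 2609 FPKM, and at 6 µM to 329, 341 and 380 bases with 2921, 2727 and 2324 FPKM. The libraries with 616 bases or more had 327 to 1044 FPKM and those with 380 or fewer had 2324 to 2921 FPKM. The log2 difference at 6 µM of 1.54 ± 0.74 in summed FPKM (SE, limma adjusted p = 0.335) stood beside 0.56 ± 0.25 in the length-weighted value. RPL37, between 259 and 3459 bases long, gave −1.31 ± 1.06 in summed FPKM and −0.01 ± 0.19 in the length-weighted value at 6 µM. RPL13A, lower at 6 µM than at 4 µM by 1.84 ± 0.67 in summed FPKM, gave −0.59 ± 0.37 length-weighted.

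The median spread of the members between libraries of 1 dose was smaller by the length-weighted value. Not every member went this way: RPL10A had an SD of 0.156 by summed FPKM and 0.259 length-weighted. The pooled within-dose SD of log2 summed FPKM had a median of 0.397 over the members and 0.329 over all genes tested. In the length-weighted value it was 0.217 over the members and 0.269 over all genes. RPL5 had the smallest SD of summed FPKM, 0.0875, and RPL36 the largest, 3.34. RPL36 was listed at 0 in replicate 3 at 6 µM where the other 8 libraries held 115 to 1362 FPKM. RPL41, the shortest ribosomal protein, kept a wide spread by both measures, 0.910 and 1.17. Over all members, the median assembled length of a library ran between 791.51 and 797 bases at 0 µM, 761.64 and 785 at 4 µM, and 779.06 and 829 bases at 6 µM. The libraries at 4 µM were thus slightly shorter and those at 6 µM lay on both sides of the vehicle.

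**Figure D5:**
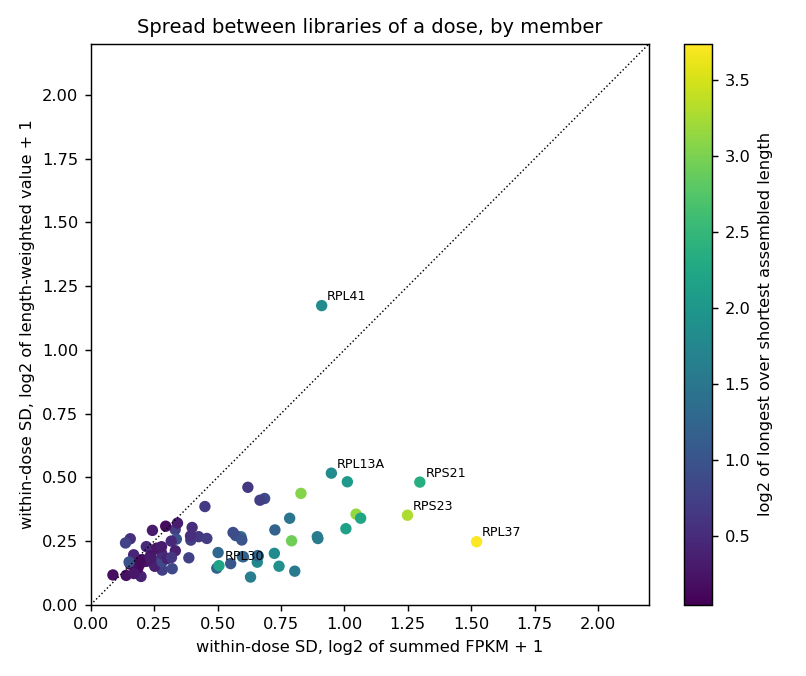
Within-dose SD of log2 summed FPKM + 1 (horizontal) and of the log2 length-weighted value + 1 (vertical), 1 point per member, coloured by how far the assembled length differed between libraries; RPL36, with 3.34 and 3.16, lies outside the axes. Points below the dotted line of equality have less spread by the length-weighted value, and members with the largest differences in length, such as RPL37 and RPS23, lie far below it.

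The members with the lowest summed differences were as wide. At 6 µM these were RPL36 with −2.81 ± 2.32, RPL37 with −1.31 ± 1.06, RPL27 with −0.82 ± 0.47, RPL18 with −0.62 ± 0.55, RPL37A with −0.62 ± 0.36 and RPS15 with −0.45 ± 0.71 (log2, SE). RPL18 rested on replicate 3 at 6 µM, with 171 FPKM beside 794 and 942 FPKM in the other two. At 4 µM RPL35 gave −0.66 ± 0.31. At the other end, RPS21 gave 1.70 ± 0.90 at 4 µM and 1.57 ± 0.90 at 6 µM, with 408, 374 and 3531 FPKM at 6 µM. RPL13A gave 1.53 ± 0.67, RPL41 1.30 ± 0.64 and RPS23 1.28 ± 0.87 at 4 µM, and RPL4 gave 0.92 ± 0.57 at 6 µM. By summed FPKM, no limma adjusted p among the members was below 0.269 at 4 µM or below 0.0663 at 6 µM. Reads of ribosomal protein genes can also be shared with their many processed pseudogenes, and the sources used here do not say how such reads were placed or whether the libraries kept strand.

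Other genes around the ribosome did not all run the same way, and none of those listed passed limma's test by summed FPKM. Of 25 further TOP mRNAs, mostly translation factors, 14 had a positive log2 difference at 4 µM and 20 at 6 µM, with medians of 0.06 and 0.22. EEF1A1, which brings aminoacyl-tRNA to the ribosome, had 4697, 3134 and 3580 FPKM with vehicle, 4908, 4891 and 4182 at 4 µM, and 6252, 5425 and 4289 at 6 µM. The groups overlapped, and at 6 µM the difference was 0.49 (limma adjusted p = 0.277). EIF3L, a subunit of initiation factor eIF3, had 155, 245 and 129 FPKM with vehicle, 283, 280 and 270 at 4 µM, and 325, 283 and 280 at 6 µM, with no overlap and a difference of 0.79 at 6 µM (limma adjusted p = 0.132), but 0.23 in the length-weighted value.

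Ribosome biogenesis factors had a median below 0 at 6 µM. Of 59 measured of a list of 60, 31 were positive at 4 µM and 17 at 6 µM, and the median was 0.01 at 4 µM and −0.17 at 6 µM. TSR1, needed for maturation of the small subunit, had 49.1, 75.7 and 76.3 FPKM with vehicle, 43.5, 51.6 and 46.7 at 4 µM, and 33.5, 38.3 and 41.5 at 6 µM, with a difference of −0.79 at 6 µM (limma adjusted p = 0.0998), but −0.23 in the length-weighted value. The RNA polymerase I list, 15 of 16 measured, had a median of −0.20 at 4 µM and −0.04 at 6 µM, and −0.22 and −0.29 in the length-weighted value. Of chaperones and importers of ribosomal proteins, 10 of 12 names were matched, with 8 of 10 negative at each dose and medians of −0.31 and −0.35. IPO5, an importer of ribosomal proteins, was lower at 6 µM by the length-weighted value, with a log2 difference of −0.65 ± 0.14 (SE, limma adjusted p = 0.0472), and by summed FPKM had −0.32 ± 0.16 (SE, limma adjusted p = 0.346). The list of S6 kinases, regulators of TOP translation and MYC, 15 genes, had medians of −0.11 and 0.02, and −0.09 and −0.16 in the length-weighted value. At 6 µM, then, the median of the ribosomal protein genes and of the other TOP mRNAs was above 0 and that of the biogenesis factors was below 0, each with no test of the list. Over all genes the median by summed FPKM was 0.00 at 4 µM and −0.03 at 6 µM, with 49.8% and 47.1% positive. How the lists other than the members moved without replicate 2 at 0 µM was not tested.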

How the data were processed

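The authors deposited 1 transcript assembly per library. Its attribute text holds FPKM, which Cufflinks computed for the authors per assembled transcript, per the file headers. The submitters' processing notes name Trimmomatic, TopHat2 2.1, Bowtie2 2.2.7, SAMtools 1.9, Cufflinks 2.2.1, R 4.0.3 and GRCh37, with no roles. The coordinates are GRCh38: of 162914 distinct introns 90.8% are annotated at the same GRCh38 position and 0.667% at the same GRCh37 position. Spliced transcripts took the name of the GENCODE gene on the same strand that shared their introns, by the GRCh38 positions GENCODE records, and 188566 of 193769 (97.3%) were named. Single-exon transcripts were used only for genes never assembled with introns. FPKM were summed per gene.

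Tests used limma 3.58.1 with a variance trend on log2(FPKM + 1), all 9 libraries and 3 doses, for genes averaging 1 FPKM or more, so folds of low genes are understated. The length-weighted value was tested likewise. Counts and fragments per gene are not in these files, so no counting interval is given. On simulated data the script was checked for recovery of known changes. Named members are the 8 highest and 8 lowest, the 6 largest and smallest differences per comparison, those that pass, paralogues, members listed at 0, and 9 of known role. RPL10A and RPL34 are described outside this rule, and both lay above the vehicle without overlap at 4 µM by summed FPKM. Some further members are named only in the lists of members without overlap. The members and lists were chosen with earlier results of these data known. Same-numbered libraries share a code in the labels whose meaning is not given, and correlations of their deviations ran from −0.0126 to 0.061 between vehicle and treated libraries and from 0.0858 to 0.124 between the doses by summed FPKM. By the length-weighted value they ran from −0.00212 to 0.0974 and from 0.115 to 0.157. Only the last set was all over 0.1, and there the block left the count of members passing, 0, as it was. The main fits have no block. RefSeq promoter sequences are GRCh38.p14. Python 3.11.15 with pandas 2.3.3 did the rest. Values of some members and of a related gene are not reported here, though the sums, counts and medians include all members tested.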

Additional observations from a re-analysis of the deposited data

How the results depend on the processing

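Among 4653 results for the 47 members named by rule, 4086 moved by less than their spread, 559 moved further and 8, all RPL30, came to pass. RPL34, outside that rule, came to pass in 2 further settings. None changed direction at the threshold, but no member had passed as reported, so this does not show that signs were stable. Over 33 settings the sign changed in 17 for RPLP2 and 15 for RPS15 at 4 µM, and in 13 for RPL13A and 12 for RPL28 at 6 µM against vehicle. For RPL30 it changed in 0 at either dose. The count of members passing was 0 in each comparison and became 1, RPL30, at both doses against vehicle with TPM (of all genes 0.0578% and 0.116% passed), and at 6 µM with the consensus exon value (adjusted p = 0.0324, all genes 3.39%), with a minimum mean of 10 FPKM (0.0499, all genes 1.36%) and with the length-weighted value after median scaling (0.0445, all genes 3.05%). Calls over all genes ran from 2 to 31 at 4 µM, 4 to 585 at 6 µM and 0 to 23 between the doses over all settings, against 11, 43 and 5 as reported. Over libraries left out in turn it was 0 to 1 at 4 µM and at 6 µM against vehicle and 0 to 0 between the doses. By the length-weighted value it was 0 to 0, 0 to 1 and 0 to 0, the 1 being RPL34 without replicate 3 at 6 µM. TPM moved the median of all genes to 0.31 at 4 µM and 0.24 at 6 µM, and that of the members to 0.50 and 0.56, so the members lay 0.19 and 0.32 above all genes. Over libraries left out, the median was 0.09 to 0.25 at 4 µM, 0.09 to 0.30 at 6 µM and 0.04 to 0.16 between doses, and by the length-weighted value 0.01 to 0.19, 0.05 to 0.27 and 0.0041 to 0.13, the lowest at 4 and 6 µM without replicate 2 at 0 µM. The summed level, at 0, 4 and 6 µM, was 102960, 154320 and 150860 as TPM, 80797 at 4 µM and 83542 at 6 µM as consensus exon value, and 61538, 67635 and 70495 length-weighted. TPM divides by the FPKM sum of each library, which was largest, 1061110, in replicate 3 at 0 µM. As TPM the members of that library came to 74381, beside 124460 and 110040 in replicates 1 and 2 at 0 µM. TPM without that library was not tested. By summed FPKM, leaving out libraries gave 73263 to 82383 at 0 µM, 89270 to 95658 at 4 µM and 92019 to 97036 at 6 µM.

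With the replicate number as a block, 0 members passed at 4 µM and at 6 µM against vehicle by summed FPKM, medians were 0.15, 0.26 and 0.09, and 3, 4 and 1 of all genes passed. The length-weighted value with the block called 1 member at 6 µM, RPL34 (adjusted p = 0.0454, all genes 3.67%), and the consensus exon value with the block called 1, RPL30 (adjusted p = 0.0338, all genes 4.37%). The cause of these changes was not tested. Depth is known only as a ratio between libraries, which limits what can be said of low members such as RPL39L.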
